A study of Homo sapiens with 9 samples.

Results

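The 10 genes described here are ETS1 and 9 related ETS factors: ETS2, ETV1, ETV4, ETV5, ETV6, ELK3, EHF, ELF5 and ERG. ETS factors are transcription factors that share a winged helix-turn-helix domain, the ETS domain, and bind DNA around a GGAA core. Many of them are switched by growth factor signalling through MAP kinases. In breast epithelium EHF and ELF5 are epithelial factors, whereas ETS1 and ERG are best known from endothelium and blood, and ETS1 from invasive tumours.

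Accessible chromatin was mapped by ATAC-seq, in which a transposase cuts open chromatin and tags it with sequencing adapters, in T47D, a luminal human breast cancer cell line. The 9 samples fell into 3 groups of 3: hypoxia with a hairpin RNA against ZHX2 (H-shZHX2), hypoxia with a control hairpin (H-shCtrl) and normoxia with a control hairpin (N-shCtrl). ZHX2 is a nuclear protein with zinc fingers and homeodomains that acts in transcription. The hairpins were delivered by lentivirus and infected cells were drug-selected, so every group carries one. Cells with shZHX2 in normoxia were not analysed here. Neither how low the oxygen was nor for how long is given in the labels used here.

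Each group was represented by 1 deposited list of regions, with 62779 regions in H-shZHX2, 77451 in H-shCtrl and 90962 in N-shCtrl. The group of each list was taken from the list's own name. The regions inside carry other prefixes, Hsh in H-shZHX2, HGFP in H-shCtrl and NOGFP in N-shCtrl, which name neither ZHX2 nor shCtrl, and every comparison rests on the list names. Depth is unknown, no value belongs to a single sample, and no spread between replicates could be computed, so the comparisons below carry no test. A region counts as called in another list when a region there shares at least 1 bp with it. Whether a missing call reflects less accessible DNA or fewer reads in that list cannot be told apart. As a check of the label, 5 of 6 luminal markers (GATA3, FOXA1, KRT8, KRT18 and PGR, not ESR1) had a region within 1 kb of a gene end in every list. Neither of the 2 endothelial markers (PECAM1, CDH5) nor the 2 basal markers (KRT5, KRT14) did. Of 3 blood markers PTPRC did in every list and CD3D in both shCtrl lists, and of 3 stromal markers COL1A1 and COL1A2 did in every list.

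A region was assigned to a gene when it lay in the gene's RefSeq span, or within 50 kb of the span with no protein-coding gene nearer. This gave the 10 genes 57 of the H-shZHX2 regions, 69 of the H-shCtrl regions and 78 of the N-shCtrl regions. Merged across lists they made 89 regions, of 97804 in all. The farthest assigned region lay 49788 bp from EHF in H-shZHX2, where its fold enrichment over local background was 7.61. The nearest one left out of that list lay 50241 bp from ERG, with a fold of 10.9. ETS1 had been picked because 4 of its H-shCtrl regions were absent from N-shCtrl, where 6.44% of all H-shCtrl regions were. Those calls are described and not tested.

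Most of the regions at these genes were open under all 3 conditions. Of the 89 merged regions, 49 (55.1%) were called in every list, against 58.4% of all merged regions. Every one of the 10 genes had a region within 1 kb of a gene end in H-shCtrl and in N-shCtrl, and all but ERG had one in H-shZHX2. Over all 20037 protein-coding genes such a region was present at 70.0% in H-shZHX2, 72.3% in H-shCtrl and 74.2% in N-shCtrl.

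Calls at the listed start sites did not differ between the lists. RefSeq promoter windows on GRCh38.p14, from 250 bases before a transcription start to 50 after it, were at hand for 7 of the 10 genes, with 18 windows. Windows of ETS1, ETV4 and ETV5 were not analysed here. A region touched 10 of these windows in all 3 lists and 8 in no list, and no window was touched in some lists only. The windows touched were both of ETS2, both of EHF, 4 of 6 of ETV1, 1 of 2 of ELK3 and the single one of ETV6. The single window of ELF5 and all 4 of ERG were touched in none.

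The 250 bases before the start are shown for ETV1, ETS2 and ETV6, 3 of the genes whose start lay inside a region in every list and whose windows held a motif. Capitals mark the ETS motif CCGGAA and the HIF motifs ACGTG and GCGTG, searched on both strands. ETV1 lies on the minus strand at chr7:13991426-13991675, ETS2 on the plus strand at chr21:38804933-38805182 and ETV6 on the plus strand at chr12:11649424-11649673.
ETV1: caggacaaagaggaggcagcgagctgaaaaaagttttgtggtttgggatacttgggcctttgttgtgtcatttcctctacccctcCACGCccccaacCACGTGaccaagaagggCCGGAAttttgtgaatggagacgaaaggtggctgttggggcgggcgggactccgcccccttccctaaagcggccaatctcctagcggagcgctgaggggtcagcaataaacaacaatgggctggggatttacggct
ETS2: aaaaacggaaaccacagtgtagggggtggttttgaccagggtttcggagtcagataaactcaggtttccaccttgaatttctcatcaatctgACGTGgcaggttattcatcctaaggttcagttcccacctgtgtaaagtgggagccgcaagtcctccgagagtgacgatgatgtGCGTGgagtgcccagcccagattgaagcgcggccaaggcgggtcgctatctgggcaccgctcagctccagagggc
ETV6: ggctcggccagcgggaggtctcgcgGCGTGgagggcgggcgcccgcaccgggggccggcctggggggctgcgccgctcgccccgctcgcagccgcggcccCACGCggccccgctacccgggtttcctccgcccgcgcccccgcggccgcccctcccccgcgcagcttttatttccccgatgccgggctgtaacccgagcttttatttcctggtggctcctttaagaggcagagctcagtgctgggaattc

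The ETV1 stretch held 1 ETS motif, its first base at −136 from the start, and 3 HIF matches. Those at −153 and −152 are the 2 strands of one CACGTG and overlap, and the other is CACGC, the reverse complement of GCGTG, at −165. ETS2 had HIF matches at −158 and −75, and ETV6 at −225 and −150. Over whole windows, 3 of the 18 held CCGGAA (16.7%), against 17.2% of the 35116 windows in the table, and 10 held a HIF motif (55.6%), against 48.4%. All 3 windows with CCGGAA were of ETV1, and those beginning at 13990653 and 13990657 overlap almost wholly. TGANTCA, the AP-1 motif, was in 0 of the 18 and in 7.71% of all windows. A match says only that the letters are present.

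ETS1, a transcription factor active in endothelial and immune development, had the most regions of the 10 genes in every list. It had 15 regions in H-shZHX2, 19 in H-shCtrl and 18 in N-shCtrl. At most 1.74% of protein-coding genes had as many or more in the same list, and the median gene had 2 regions in either hypoxia list and 3 in N-shCtrl. Within its span of 129 kb (chromosome 11, 128458765 to 128587558) lay 12 merged regions, or 9.32 per 100 kb, against a median of 3.51 over the 6269 protein-coding genes of 50 kb or more. Of those genes 569 (9.08%) had as high a density or higher, so ETS1 stood out less once span was allowed for. By count ETS1 was thus region-rich in every list, although its typical region was weak. The 4 regions for which ETS1 was picked are part of its H-shCtrl count, and 2 of them of its H-shZHX2 count. Inside the span lay 3 of the 4, and they enter the density. Ranked by −log10 q in their own list, with 100 the strongest, the median ETS1 region stood at percentile 19.2 in H-shZHX2, 29.2 in H-shCtrl and 25.1 in N-shCtrl.

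**Figure D1:**
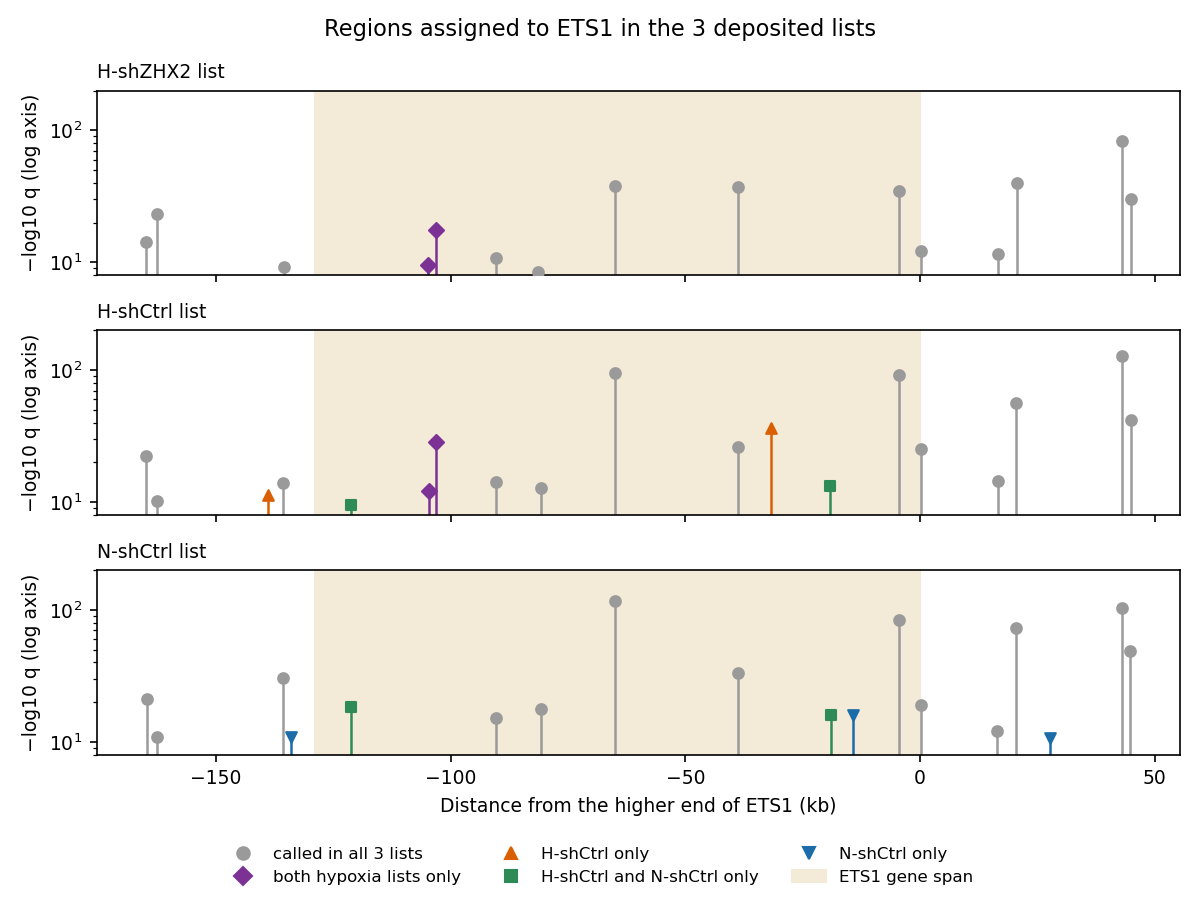
Regions assigned to ETS1, one panel per list. Each point is a region at its distance from the higher end of the gene (kb), with its height the −log10 q in its own list on a log axis, and shading marks the gene span. The 13 regions called in all lists include every region with a −log10 q above 50, and the 4 regions that are in H-shCtrl and not in N-shCtrl (diamonds and upright triangles) lie 31577 to 138661 bp below the higher end.

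Of the 22 merged ETS1 regions, 13 were called in all 3 lists. By fold the leading region was a different one in each list. In H-shZHX2 it was the region at 128630385 to 128630777, 42827 bp beyond the higher end of the gene, with a fold of 6.17. In H-shCtrl it was the region at 128582891 to 128583349, 4209 bp inside that end, with a fold of 6.71. In N-shCtrl it was the region at 128522174 to 128522789, well inside the gene, with a fold of 6.89. All 3 of these sites were called in every list. The region over the higher end of the gene itself was weak, with folds of 3.20 in H-shZHX2, 3.55 in H-shCtrl and 3.33 in N-shCtrl, which are the authors' values within each list. The other 9 shared sites had folds of 2.42 to 5.14, and 2 weak sites inside the gene, near 128466232 and 128568181, were called in both shCtrl lists only.

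The 4 ETS1 regions of H-shCtrl that were absent from N-shCtrl differed in strength and in what happened with shZHX2. An isolated region at 128555637 to 128555981, inside the gene, was the strongest of them, with a fold of 4.60 and percentile 45.6 in H-shCtrl. The nearest N-shCtrl region lay 6525 bp away and the nearest H-shZHX2 region 6721 bp away, so this site was called in H-shCtrl alone. Of all H-shCtrl regions in the same class of scores, 1.58% were not called in N-shCtrl and 20.1% were not called in H-shZHX2.

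A pair of the 4 regions lay close together in the gene, at 128482767 to 128482966 and 128484194 to 128484550 in H-shCtrl. Both were called in both hypoxia lists, with folds of 2.91 and 3.70 in H-shZHX2 and 2.85 and 3.92 in H-shCtrl. The nearest N-shCtrl region was 13792 and 12208 bp away. Regions in both hypoxia lists and not in normoxia were rare, making up 0.750% of all merged regions. At the 10 genes they were 2 of the 89 merged regions, both at ETS1 and both among the 4 for which ETS1 was picked. Without ETS1 they were 0 of 67, so the 2 describe that choice and not the ETS genes as a set. Over all protein-coding genes, 560 had at least 1 such region and 22 had at least 2. The last of the 4, at 128448609 to 128448897, lay 9868 bp below the lower end of the gene with a fold of 2.71, at percentile 3.90 of its list, and was in H-shCtrl alone.

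Under the same assignment 52 protein-coding genes, ETS1 among them, had 4 or more such regions, and 21 had more than 4. To set the count beside regions of like strength, each list was split by −log10 q into 10 equal score classes, and the share not called in each class was summed over the regions of a gene. For the 19 H-shCtrl regions of ETS1 this sum was 2.43. Another 25 H-shCtrl regions had ETS1 as their nearest gene but lay beyond 50 kb, and they took no part in the choice of ETS1. They come from the same locus and the same lists, so they are no independent replicate. Of the 25, 5 were absent from N-shCtrl (20%, 95% Wilson interval 8.86 to 39.1, for counting error only). This interval and those below treat neighbouring regions as independent and do not test a difference from the share over all regions. The score-class sum was 2.19 and the share over all H-shCtrl regions 6.44%. The 5 stood at or below percentile 43.2 of their list. Against H-shZHX2, 10 of the same 25 were absent (40%, 23.4 to 59.3), with a score-class sum of 7.97 and 25.0% over all H-shCtrl regions. The 50 kb limit therefore leaves out more ETS1 regions in H-shCtrl than it takes in.

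In the other direction, 3 of the 18 ETS1 regions of N-shCtrl were absent from H-shCtrl, and all 3 were absent from H-shZHX2 as well. The score-class sum was 6.48, and over all N-shCtrl regions 20.6% were absent from H-shCtrl. The 3 regions had folds of 2.53, 3.00 and 2.36 in N-shCtrl. Beyond 50 kb 8 of 28 N-shCtrl regions were absent from H-shCtrl (28.6%, 15.3 to 47.1, score-class sum 9.90). Set against H-shZHX2, 4 of the 19 H-shCtrl regions were not called, beside a score-class sum of 8.31 and 25.0% of all H-shCtrl regions. Each of the 15 H-shZHX2 regions of ETS1 was called in H-shCtrl, where 7.11% of all H-shZHX2 regions were not. Beyond 50 kb 3 of 18 were not (16.7%, 5.84 to 39.2, score-class sum 2.11), so ETS1 had calls in H-shZHX2 and not in H-shCtrl at that distance.

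**Figure D2:**
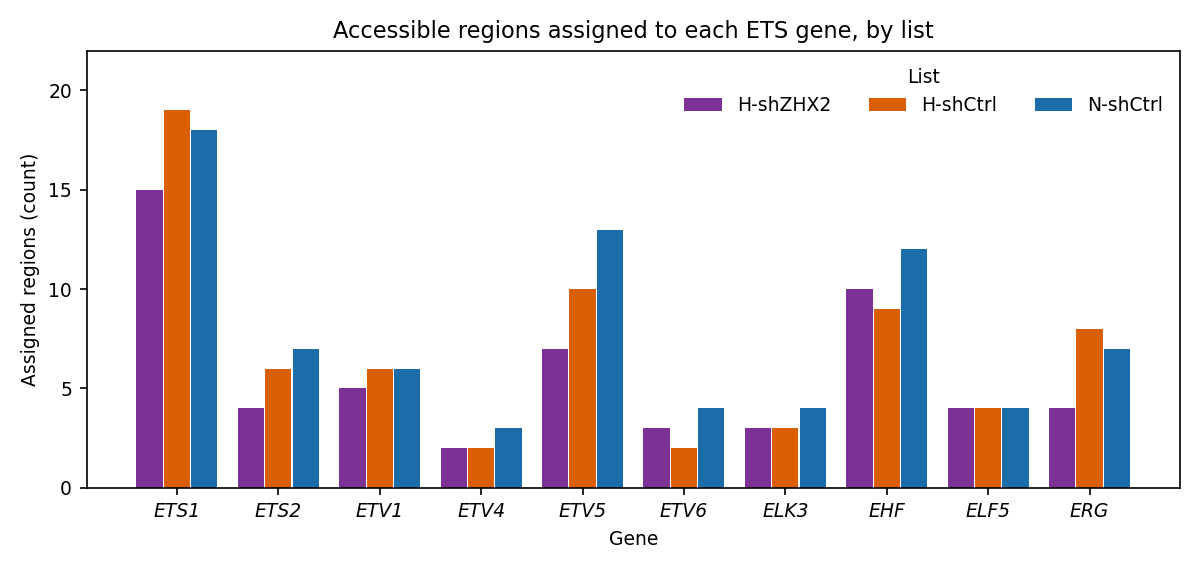
Number of regions assigned to each gene (bars) in H-shZHX2, H-shCtrl and N-shCtrl. ETS1 has 15, 19 and 18 regions; EHF has 10, 9 and 12, ETV5 has 7, 10 and 13, and the other genes have 2 to 8.

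ETS2, the closest relative of ETS1, had 4 regions in H-shZHX2, 6 in H-shCtrl and 7 in N-shCtrl. Its start was covered in every list (chromosome 21, 38805055 to 38806550 in H-shCtrl), with folds of 6.42 in H-shZHX2, 6.14 in H-shCtrl and 5.87 in N-shCtrl, and this was its strongest region by −log10 q in each. A pair of upstream regions was called in both shCtrl lists and not with shZHX2. The one nearer to the gene, at 38795096 to 38795368, had a fold of 3.66 in H-shCtrl and 4.16 in N-shCtrl. No ETS2 region was absent from N-shCtrl.

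ERG, an endothelial factor known as a fusion partner in prostate cancer, lies next to ETS2 and was sparse for its size. Its span of 295 kb held 5 merged regions, or 1.70 per 100 kb. It had 4 regions in H-shZHX2, 8 in H-shCtrl and 7 in N-shCtrl. The strongest was called in every list and lay 10806 bp below the lower end, with folds of 7.83 in H-shZHX2, 6.75 in H-shCtrl and 6.82 in N-shCtrl. The region within 1 kb of its higher end (38661041 to 38661701 over both lists) was called in H-shCtrl with a fold of 2.78 and in N-shCtrl with a fold of 3.37, and was not called in H-shZHX2. It was the only region at a gene end of the 10 genes whose call differed between lists, and it stood at percentile 2.62 of H-shCtrl. The strongest ERG region whose call differed was at 38621241 to 38621519, in both shCtrl lists with folds of 3.59 in H-shCtrl and 2.98 in N-shCtrl.

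Of the ETV1, ETV4 and ETV5 group, factors that act downstream of receptor tyrosine kinases, ETV5 varied most. It had 7 regions in H-shZHX2, 10 in H-shCtrl and 13 in N-shCtrl, and only 5 of its 16 merged regions were called in all 3. The region over its higher end (chromosome 3, 186108606 to 186109573 in H-shCtrl) was the strongest of any of the 10 genes, with a −log10 q of 1281 in H-shZHX2, 1504 in H-shCtrl and 1592 in N-shCtrl, at percentile 99.8 or above. The calls that differed were at weak regions. Of the 10 H-shCtrl regions 2 were absent from N-shCtrl and 5 from H-shZHX2, and 5 of the 13 N-shCtrl regions were absent from H-shCtrl. The score-class sums were 1.19, 3.89 and 4.29, and the shares over all regions 6.44%, 25.0% and 20.6%, in the same order. The strongest of these, at 186057553 to 186057943 over both lists, was in both shCtrl lists, with folds of 3.38 in H-shCtrl and 4.37 in N-shCtrl.

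ETV4 had 2 regions in H-shZHX2, 2 in H-shCtrl and 3 in N-shCtrl, with 2 strong regions in all lists. The one over its higher end had folds of 5.08 in H-shZHX2, 5.18 in H-shCtrl and 5.27 in N-shCtrl. The other, 30219 bp beyond that end in H-shCtrl, led by fold, at 9.52 in H-shZHX2, 8.67 in H-shCtrl and 7.68 in N-shCtrl. Its remaining region, in N-shCtrl only, had a fold of 2.37 and also lay inside the span of DHX8.

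ETV1 kept nearly all its calls but its regions changed order within the lists. It had 5 regions in H-shZHX2, 6 in H-shCtrl and 6 in N-shCtrl, and the 1 call that differed was a weak region 40583 bp below the gene. An intragenic region 9907 bp from the start (chromosome 7, 13981035 to 13981518 in H-shZHX2) had the highest fold of all regions of the 10 genes in H-shZHX2, 15.3. The same site had a fold of 9.60 in H-shCtrl, 2nd of 6 among ETV1 regions, and 6.84 in N-shCtrl, 3rd of 6 among them. The region over the start had folds of 6.60 in H-shZHX2, 6.75 in H-shCtrl and 6.69 in N-shCtrl. By −log10 q the start region led in H-shCtrl (344) and N-shCtrl (427), and the intragenic one in H-shZHX2 (268). Folds were scaled separately in each list, so the order within a list is what these values show.

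**Figure D3:**
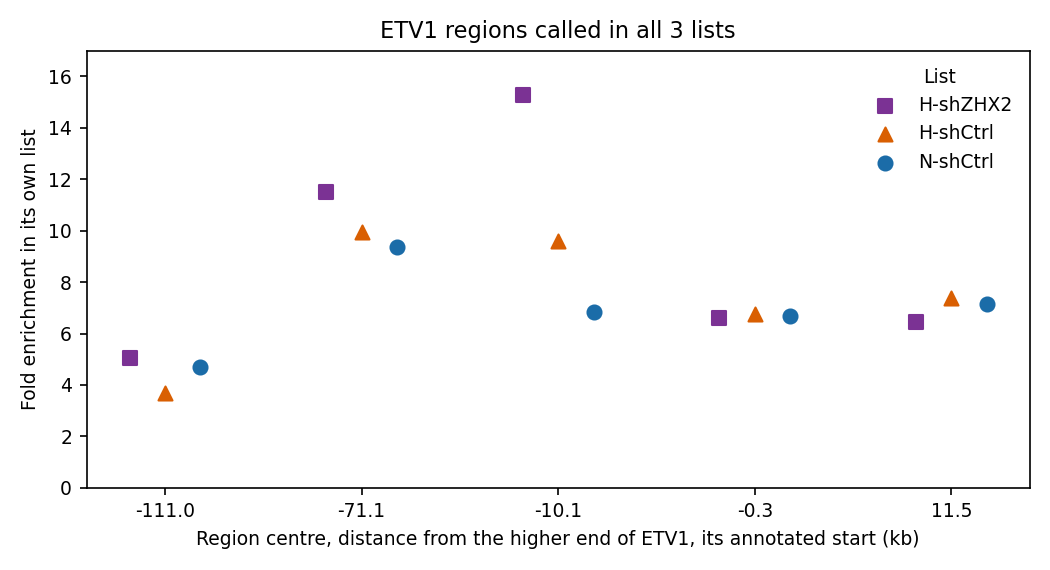
Fold enrichment over local background of the 5 ETV1 regions called in all 3 lists, by distance of the region's centre from the start of the gene (kb, equal spacing). At the intragenic region nearest the start the fold is 15.3 in H-shZHX2, 9.60 in H-shCtrl and 6.84 in N-shCtrl, while at the start it lies between 6.60 and 6.75 in all 3.

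ETV6, a repressor needed in blood formation, was sparse like ERG, with 3 merged regions in a span of 246 kb. It had 3 regions in H-shZHX2, 2 in H-shCtrl and 4 in N-shCtrl. The region over its start was called in every list, with folds of 4.52 in H-shZHX2, 4.75 in H-shCtrl and 4.80 in N-shCtrl. A region 26 kb before the gene was in H-shZHX2 with a fold of 3.65 and in N-shCtrl with 3.86, and not in H-shCtrl.

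ELK3, a ternary complex factor that works with serum response factor, had 3 regions in H-shZHX2, 3 in H-shCtrl and 4 in N-shCtrl, and the same 3 sites were called throughout. The strongest lay inside the gene (chromosome 12, 96215196 to 96215688 in H-shCtrl), with folds of 12.1 in H-shZHX2, 10.8 in H-shCtrl and 10.9 in N-shCtrl. The region over its start had folds of 7.02 in H-shZHX2, 6.56 in H-shCtrl and 7.01 in N-shCtrl. The remaining N-shCtrl region had a fold of 3.05.

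EHF and ELF5, neighbours on chromosome 11 and both epithelial factors, kept their main regions in every list. EHF had the densest span of the 10 genes, at 14.2 merged regions per 100 kb, and 10 regions in H-shZHX2, 9 in H-shCtrl and 12 in N-shCtrl. Its strongest region in H-shZHX2 and N-shCtrl by −log10 q lay 49.6 kb below the gene, at 34570281 to 34571477 over the lists. In H-shCtrl the region over the second listed start led instead, with a −log10 q of 319. The region over the lower end of EHF was called throughout, with folds of 4.12 in H-shZHX2, 2.51 in H-shCtrl and 3.15 in N-shCtrl. A pair of EHF sites, at 34633847 to 34634549 and 34665170 to 34665879, was called in H-shZHX2 and in N-shCtrl and not in H-shCtrl, with folds of 1.65 and 2.43 in H-shZHX2 and 1.75 and 2.40 in N-shCtrl.

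ELF5, which drives the alveolar fate of luminal progenitors, had 4 regions in each list. A broad region over the higher end of the gene (34512813 to 34514386) was called in all, with folds of 5.80 in H-shZHX2, 5.29 in H-shCtrl and 5.35 in N-shCtrl. The listed start, inside the gene at 34511724, was not covered in any list. A region inside the gene was called in H-shZHX2 only, with a fold of 3.01, and the region 47041 bp above the gene was in both shCtrl lists, with folds of 3.14 in H-shCtrl and 3.09 in N-shCtrl.

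Hypoxia and normoxia were then compared over the 10 genes together, to list the sites whose call differed. Whether sites of the 10 genes open or close when oxygen falls was not tested. Of their 69 H-shCtrl regions, 9 were absent from N-shCtrl (13.0%, 95% Wilson interval 7.02 to 23.0), where the share over all H-shCtrl regions was 6.44%. Without ETS1, which was chosen on this count, it was 5 of 50 (10.0%, 4.35 to 21.4): 2 at ETV5, 2 at ERG and 1 at EHF. Intervals here and below cover counting error only and treat neighbouring regions as independent. They do not test a difference from the share over all regions. All 5 were at or below percentile 13.2 of H-shCtrl, and the score-class sum over the 50 regions was 3.28.

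In N-shCtrl 18 of 78 regions were absent from H-shCtrl (23.1%, 15.1 to 33.6), against 20.6% of all N-shCtrl regions. They fell at 8 of the 10 genes, ETV1 and ELF5 having none, with 5 at ETV5, 4 at EHF and 3 at ETS1. None of the 18 and none of the 9 lay within 1 kb of a gene end. With every list cut to the 62779 strongest regions, 6 of 49 H-shCtrl regions were absent from N-shCtrl, against 10.7% of all, and 5 of 48 N-shCtrl regions were absent from H-shCtrl, against 11.0% of all. ETS1 still had 4 in that setting, of which 2 belonged to the original 4 and 2 were weaker N-shCtrl calls that the shorter list dropped.

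ZHX2 knockdown and control hairpin were compared in hypoxia, to list the sites whose call differed. Whether any site depends on ZHX2 was not tested, as a missing call may reflect fewer reads. Of the 57 H-shZHX2 regions, 6 were absent from H-shCtrl (10.5%, 4.91 to 21.1), against 7.11% of all H-shZHX2 regions. There were 2 each at ETV5 and EHF and 1 each at ETV6 and ELF5. Of the 69 H-shCtrl regions, 18 were absent from H-shZHX2 (26.1%, 17.2 to 37.5), against 25.0% of all H-shCtrl regions. These lay at 7 of the 10 genes, with 5 of 10 regions at ETV5, 4 of 8 at ERG, 4 of 19 at ETS1, 2 of 6 at ETS2 and 1 each at ETV1, EHF and ELF5.

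These counts changed with the length of the lists. With lists of equal length, 13 of 57 H-shZHX2 regions were absent from H-shCtrl, against 14.5% of all, and 5 of 49 H-shCtrl regions were absent from H-shZHX2, against 14.9% of all. The larger count thus changed sides. Both comparisons use the H-shCtrl list, so the sites called there alone, 7 of the 89, enter both.

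**Figure D4:**
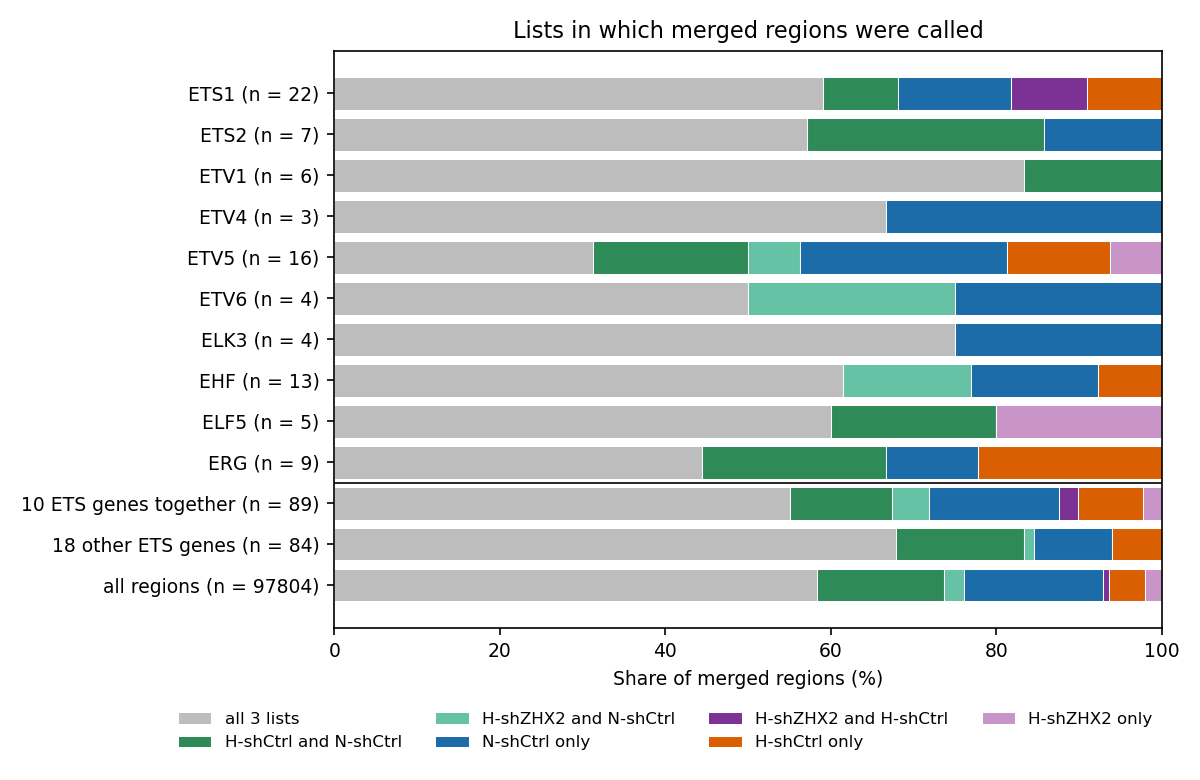
Share of merged regions (%) by the lists in which they were called, for each gene, for the 10 genes together, for 18 other ETS genes and for all regions. All 3 lists share 55.1% of regions at the 10 genes, 67.9% at the other ETS genes and 58.4% overall.

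Regions whose call differed came from the weak end of each list, at these genes as elsewhere. Among the 10 genes the H-shCtrl regions absent from N-shCtrl had a median percentile of 12.8, against 49.6 for those shared, and over all regions the medians were 13.0 and 53.2. The H-shCtrl regions absent from H-shZHX2 had a median of 12.3, against 56.1 for those shared, and over all regions 18.2 and 62.4. Most were also narrower by median width. At the 10 genes the H-shCtrl regions absent from H-shZHX2 had a median of 310 bp, against 526 bp for those shared. Regions absent between H-shCtrl and N-shCtrl were narrower in both directions too. Only the H-shZHX2 regions absent from H-shCtrl were wider, with a median of 586.5 bp, against 491 bp, and they numbered 6. Over all regions that same comparison gave narrower ones, with a median of 280 bp, against 492 bp. No region of the 10 genes in the stronger 50% of any list was absent from the list it was compared with, and the highest was the ETS1 region at percentile 45.6. Such absences were uncommon over all regions too. In the score classes of the stronger 50%, at most 0.478% of H-shCtrl regions were absent from N-shCtrl and 2.68% of N-shCtrl regions from H-shCtrl. At most 8.20% of H-shCtrl regions were absent from H-shZHX2 and 0.653% of H-shZHX2 regions from H-shCtrl.

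**Figure D5:**
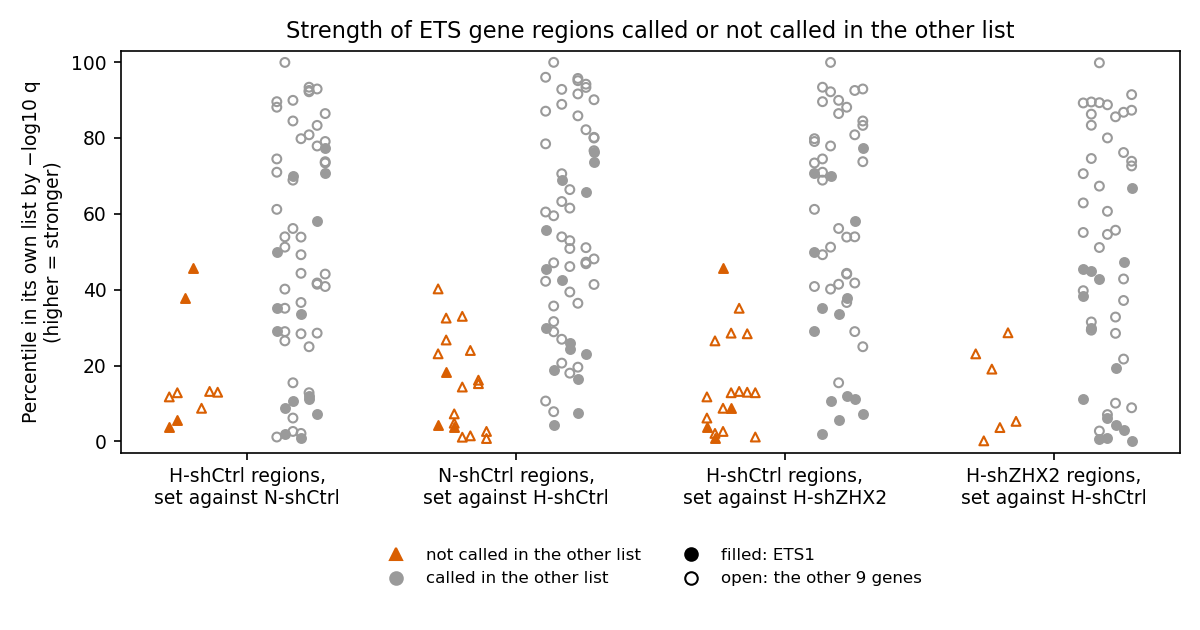
Percentile of each region of the 10 genes in its own list by −log10 q, for regions not called (triangles) and called (circles) in the list they are set against; filled symbols are ETS1. Regions not called reach at most percentile 45.6, while called regions span the whole range.

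The remaining 18 ETS genes of the family were examined in the same way, and each had at least 1 region. They had 61 regions in H-shZHX2, 76 in H-shCtrl and 80 in N-shCtrl. Of their 84 merged regions, 57 (67.9%) were called in all lists. The genes with the most merged regions were FLI1 with 17, ELF1 and ELF3 with 8 each, and ETV3 and ELF2 with 7 each. ELF3 is an epithelial factor, and each list held a region within 1 kb of one of its ends. All 7 ELF2 regions were shared by all 3 lists.

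Regions of these 18 genes called in H-shCtrl and not in N-shCtrl numbered 5 of 76 (6.58%, 2.84 to 14.5), 1 each at ETV7, ELF1, ELF3, FLI1 and GABPA, with folds of 2.14 to 3.11 and none above percentile 12.2. In N-shCtrl 9 of 80 were absent from H-shCtrl (11.3%, 6.03 to 20.02). Over all regions these shares were 6.44% and 20.6%, and the score-class sums for the 18 genes were 5.15 and 11.8. For ZHX2 knockdown, 1 of 61 H-shZHX2 regions was absent from H-shCtrl (1.64%, 0.290 to 8.72), and 19 of 76 H-shCtrl regions were absent from H-shZHX2 (25.0%, 16.6 to 35.8). Over all regions these shares were 7.11% and 25.0%, and the score-class sums for the 18 genes were 3.81 and 19.3.

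FLI1, an ETS factor of blood and endothelium that adjoins ETS1, had 8 regions in H-shZHX2, 16 in H-shCtrl and 16 in N-shCtrl. Of its 16 H-shCtrl regions 8 were absent from H-shZHX2, where the score-class sum was 6.46 and the share over all regions 25.0%. Absent from N-shCtrl was 1, where the sum was 1.75 and the share over all regions 6.44%. ETS1 and FLI1 had nearly equal densities, 9.32 and 9.37 merged regions per 100 kb of span. Unlike ETS1, FLI1 had no region within 1 kb of a gene end in H-shZHX2 or H-shCtrl, and had one in N-shCtrl.

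The genes most like ETS1 in how their merged regions split over the 7 possible sets of lists were EFCAB5, RASSF5, EGFLAM, DNM3 and LINC02210-CRHR1, among 1778 other protein-coding genes with at least 10 merged regions. Likeness was the Euclidean distance between the 7 shares, from 0.0407 for EFCAB5 and RASSF5 to 0.0783 for LINC02210-CRHR1. The first 2 had 10 merged regions each, of which 6 were called in all lists and 1 in both hypoxia lists only, against 13 and 2 of the 22 of ETS1. These genes were chosen by those shares, so their closeness is no separate result. The ETS1 shares include the regions for which ETS1 was picked.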

How the data were processed

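Nuclei of T47D cells were treated with transposase and the libraries sequenced as paired ends, per the labels' protocols. The submitters' processing notes name FastQC, Bowtie2, SAMtools, MACS2 and hg38, with no version or setting. The sources used here do not say how 3 samples became 1 list, or whether reads were shifted for the transposase. Each deposited list gives, per region, the authors' score, fold enrichment (a ratio over local background) and −log10 q. The deposited −log10 p was not used. In 99.995% or more of regions of each list the authors' score repeats the −log10 q on another scale, so ranks use the −log10 q.

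Here, regions were matched by overlap and assigned to RefSeq protein-coding genes (GRCh38.p14, 1-based) in Python 3.11.15 with pandas 2.3.3, NumPy 2.4.6 and SciPy 1.17.1. The matching was tested on made-up regions. The 10 genes and the gene, marker and motif lists were chosen with earlier results of these data known. By rule, all 10 genes are named, with all ETS1 regions accounted for and elsewhere the strongest, gene-end and strongest differing regions; other ETS genes are named for most regions or for hypoxia-only calls. Motifs were searched in RefSeq promoter windows, and no genome sequence was used here. Alternatives changed the overlap, strength, list length and gene assignment.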

Additional observations from a re-analysis of the deposited data

How the results depend on the processing

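Of 35 recomputed counts, 21 stayed within 1.5 times the reported one. A stricter overlap (50% of the shorter region), assignment within 20 kb and assignment by the nearest gene end moved none beyond that. Restricting each list to its stronger 50% left 0 in all 5 counts, of 4 regions at ETS1 and of 25 to 32 over the 10 genes. The shares over all regions of that strength, given above by score class, were low as well. Lists of equal length gave 5 N-shCtrl regions absent from H-shCtrl, against 18, 5 H-shCtrl regions absent from H-shZHX2, against 18, and 13 H-shZHX2 regions absent from H-shCtrl, against 6. Letting all annotated genes compete gave 10 of 46 H-shCtrl regions absent from H-shZHX2, against 18 of 69, where the share over all H-shCtrl regions was 25.0%. Fewer regions are assigned in that setting, and ETS1 kept 11 of its 19 H-shCtrl regions. With no distance limit, chosen after seeing the data, the counts were 9 at ETS1, and over the 10 genes 14 in H-shCtrl and not N-shCtrl, 35 in N-shCtrl and not H-shCtrl, 31 in H-shCtrl and not H-shZHX2, and 11 in H-shZHX2 and not H-shCtrl; more regions are assigned by construction. No paired analysis was possible because the lists are 1 per group and carry no sample values, so no sample could be left out either. Depth is unknown and limits every missing call.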
